A study of Homo sapiens with 6 samples.

Results

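The mitochondrially encoded genes are the 37 genes of the human mitochondrial DNA. They were taken as the rows of the deposited count table whose Ensembl identifier carries a symbol starting with MT-, which gave 13 protein-coding, 2 rRNA and 22 tRNA genes of 60203 rows. This rule used no expression value, though earlier results of these data were known when it was set.

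The series asked how the lncRNA LETN and the nucleolar protein NPM1 depend on each other in tumor cells. Cells labelled HUH7, a hepatocellular carcinoma cell line, received siNC (control), siLETN or siNPM1 with Lipofectamine RNAiMAX, and total RNA was taken after 48 h from 2 samples per siRNA. All samples therefore share the line, the transfection and the time, and each siRNA group is 2 samples of 1 line. The names of the 6 value columns match no sample label, so the columns are named library 1 to 6 after the running number in their names, and no siRNA was assigned to any of them. For this reason each library's value is given, with no mean, no test between siRNAs and no p-value. The spread over the 6 libraries mixes all 3 siRNAs, and no label says which libraries are replicates. Libraries 1 and 2, 3 and 4, and 5 and 6 were much closer to each other than to the rest, with a chi-square per degree of freedom of 1.39 to 1.74 over all genes with enough counts, against 22.2 to 56.7 for the other 12 pairs.

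The label was checked against liver markers, and most of the defining ones were missing. AFP, APOB and FGB had 0 counts in all 6 libraries, ALB had 1 count in libraries 1 and 4 and none elsewhere, and TTR, TF and APOA1 had at most 2 counts in any library. SERPINA1 (74.3 to 144.9 CPM, counts per 1000000 counts of the library) and HNF4A (75.2 to 115.0 CPM) did have counts in every library, and the 9 matched markers of blood, stromal, lung and other cells summed to 0.730 to 1.95 CPM, with COL1A1 (0.486 to 1.38 CPM), ACTA2 and VWF, both at most 0.293 CPM, the highest of them per kb. The libraries are therefore referred to by their label, HUH7, and are given no other cell type name. What the missing liver markers mean for the mitochondrial values was not tested.

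The mitochondrial DNA is a small circle present in many copies per cell. Both of its strands are transcribed as long precursors by the single-subunit polymerase POLRMT, and the tRNAs that punctuate the precursors are cut out to release the mRNAs and rRNAs. The 13 protein-coding genes encode core subunits of respiratory complexes I, III and IV and of the ATP synthase (complex V). All other subunits are encoded in the nucleus. Below, 13 mRNAs means these 13 genes counted one by one, whether or not overlapping genes share an RNA molecule. MT-ND6 and 8 tRNAs are encoded on the light strand, and the remaining 28 genes on the heavy strand. The mRNAs carry almost no untranslated sequence, and several end in an incomplete stop codon that is filled in by the poly(A) tail.

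This compact layout sets what a count can mean, so 3 places where genes share bases are shown first. Sequences are those of the GENCODE 44 transcripts of GRCh38, written 5′ to 3′ in the sense of the gene, and were not read from the libraries. MT-ATP8 and MT-ATP6 share 46 bases, here in capitals, at the end of the first gene (chrM:8503-8572, plus strand) and the start of the second (chrM:8527-8596, plus strand):
MT-ATP8, last 70 bases: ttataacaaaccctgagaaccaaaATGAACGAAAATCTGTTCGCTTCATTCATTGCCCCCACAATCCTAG
MT-ATP6, first 70 bases: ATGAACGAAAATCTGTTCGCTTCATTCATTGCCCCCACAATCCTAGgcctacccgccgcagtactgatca

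MT-ND4L and MT-ND4 share 7 bases, in capitals, at the end of the first (chrM:10697-10766, plus strand) and the start of the second (chrM:10760-10829, plus strand), where the start codon of MT-ND4 lies inside the end of MT-ND4L:
MT-ND4L, last 70 bases: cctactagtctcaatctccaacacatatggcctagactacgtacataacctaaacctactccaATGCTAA
MT-ND4, first 70 bases: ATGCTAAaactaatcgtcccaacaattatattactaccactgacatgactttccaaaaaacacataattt

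MT-TI (chrM:4263-4331, plus strand) and MT-TQ (chrM:4329-4400, minus strand) share 3 bases on opposite strands, in capitals, so that the end of one is the complement of the end of the other:
MT-TI: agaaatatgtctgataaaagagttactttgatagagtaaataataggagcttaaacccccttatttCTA
MT-TQ: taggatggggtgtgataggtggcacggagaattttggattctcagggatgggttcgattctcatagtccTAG

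The tRNA with the most counts, MT-TP for proline (chrM:15956-16023, minus strand), is shown with its neighbour on the opposite strand, MT-TT for threonine (chrM:15888-15953, plus strand), each with the anticodon in capitals:
MT-TP: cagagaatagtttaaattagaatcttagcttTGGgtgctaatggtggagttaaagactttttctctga
MT-TT: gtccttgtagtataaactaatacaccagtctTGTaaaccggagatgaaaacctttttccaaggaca

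MT-ATP6 also shares 1 base with MT-CO3, and MT-TC 1 base with MT-TY. The counting tool and its strand setting are not given in the sources used here. How reads over shared bases were assigned is therefore unknown, and reads from a gene and from an overlapping transcript of the opposite strand cannot be told apart.

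The 6 libraries held 8034137 to 10224212 counts each. The mitochondrially encoded genes took 3.99% of the counts in library 1, 4.14% in library 2, 4.14% in library 3, 4.20% in library 4, 3.71% in library 5 and 3.83% in library 6, with a median of 4.07%. Libraries 5 and 6 had the lowest shares and library 4 the highest, 1.13 times that of library 5. The 95% Wilson intervals were narrow, 4.18% to 4.21% for library 4 and 3.70% to 3.73% for library 5, and, like all counting limits given here, they cover counting error only. With library sizes scaled by TMM or by median-of-ratios, 2 methods that set the scale by the bulk of genes, the highest library was 1.06 times the lowest, and the order changed, with library 6 highest and library 1 lowest under both. Which library held most mitochondrial RNA thus depended on the scaling. The nuclear lncRNA MALAT1 moved between 1.71% and 3.45% of the counts over the same libraries, and its part in the mitochondrial shares was not tested.

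Nearly all of these counts came from the mRNAs. The 13 protein-coding genes held 99.8% to 99.9% of the mitochondrial counts, the 22 tRNA genes 0.0461% to 0.0869% and the 2 rRNA genes 0.00395% to 0.117%. Between 4 and 5 of the 10 rows with the most counts in a library were mitochondrial mRNAs.

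Among the mRNAs, levels per length differed by more than 10-fold. They are given as CPM per kb of gene length, so that genes of 207 to 1812 nt can be compared. By the median over the 6 libraries, MT-CO1 was highest at 7656 CPM per kb, followed by MT-CO3 (6068), MT-CO2 (5898), MT-ND4 (4945), MT-ATP6 (3575), MT-ND2 (2147), MT-CYB (2024.5), MT-ND1 (1955), MT-ND5 (1812), MT-ND4L (1413), MT-ND3 (1378), MT-ATP8 (772) and MT-ND6 (430). MT-CO1 was thus 17.8 times as high as MT-ND6.

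Some places in this order were fixed in every library and others were not. MT-CO1, MT-ND4, MT-ATP6, MT-ND5, MT-ATP8 and MT-ND6 kept their place in all 6 libraries. The pairs of neighbours that changed places were 4. MT-CO3 was above MT-CO2 in 4 of 6 libraries, with a ratio per kb of 0.939 to 1.07, MT-ND2 was above MT-CYB in 4 (0.905 to 1.15), MT-CYB was above MT-ND1 in 4 (0.918 to 1.25), and MT-ND4L was above MT-ND3 in 3 (0.925 to 1.35). MT-CO2 was above MT-CO3 in libraries 3 and 4, MT-CYB was above MT-ND2 in libraries 5 and 6 and below MT-ND1 in libraries 1 and 2, and MT-ND3 was above MT-ND4L in libraries 4, 5 and 6. The 4 shortest mRNAs, MT-ATP8, MT-ND4L, MT-ND3 and MT-ND6, were also the 4 lowest per kb. Whether short genes lose counts per kb through their length alone was not tested.

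**Figure D1:**
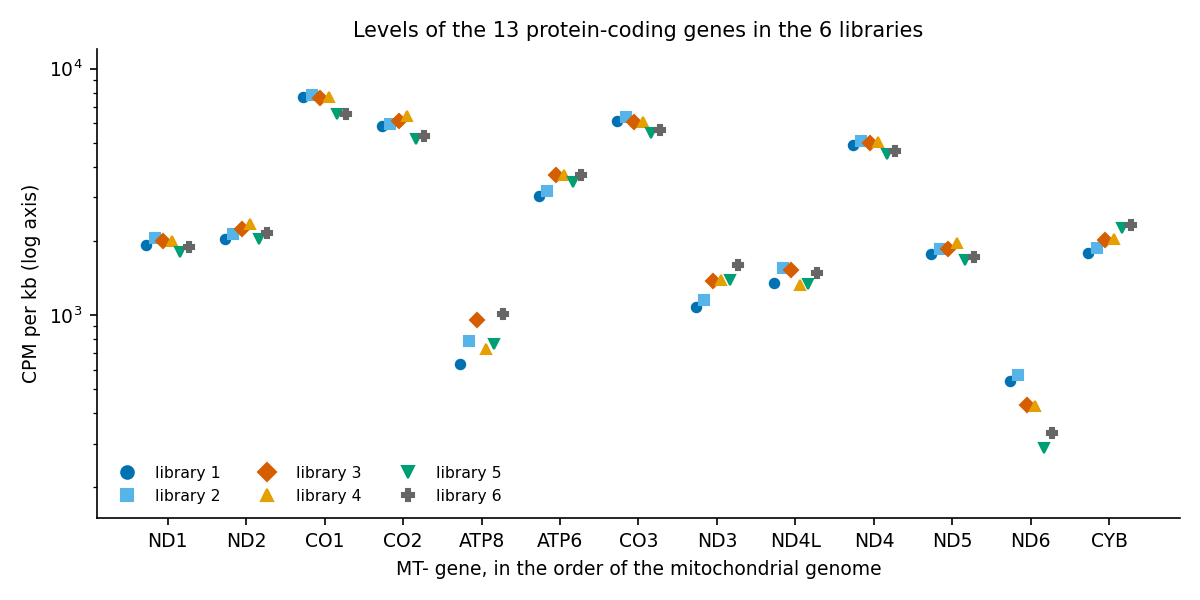
Each point is 1 library's CPM per kb of gene length (y axis, log scale) for 1 of the 13 mitochondrial mRNAs, which stand on the x axis in the order of the mitochondrial genome. MT-CO1 lies highest in every library and MT-ND6 lowest, with medians of 7656 and 430 CPM per kb.

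Against the rest of the transcriptome these levels were high. Of 49068 genes of at least 200 nt with a known length, MT-CO1 ranked first per kb in all 6 libraries, and 12 of the 13 mRNAs ranked between 1 and 24 in every library. MT-ND6 ranked between 28 and 50. The lengths come from GENCODE 44 of GRCh38, while the counts were made on hg19. They merge the exons of all transcripts of a gene, which makes many nuclear genes longer than any 1 mRNA. With the length of the canonical transcript instead, MT-CO1 still ranked first in all libraries, MT-ATP8 ranked between 31 and 65, MT-ND6 between 76 and 140, and the other 10 mRNAs between 2 and 29.

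Complex IV, cytochrome c oxidase, reduces oxygen at the end of the chain, and MT-CO1 holds its heme a3 and copper reaction centre, with MT-CO2 receiving electrons from cytochrome c. Its 3 mitochondrial subunit genes summed to 17964 to 21145 CPM, a median of 50.1% of all mitochondrial counts. MT-CO1 (chrM:5904-7445) stood at 11833, 12101, 11778, 11888, 10100.2 and 10072 CPM in libraries 1 to 6. MT-CO2 (chrM:7586-8269) stood at 4007, 4061, 4201, 4411, 3552 and 3661 CPM. For both genes, libraries 5 and 6 lay below the other 4. MT-CO3 (chrM:9207-9990) was at 4809.8, 4982, 4769.6, 4745, 4312 and 4428 CPM, again with libraries 5 and 6 lowest. The highest library was 1.20 times the lowest for MT-CO1, 1.24 times for MT-CO2 and 1.16 times for MT-CO3. Under TMM scaling these spans were 1.10, 1.14 and 1.06. Library 5 was then lowest for all 3 genes, but libraries 5 and 6 were the lowest 2 for MT-CO1 alone.

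Complex I, NADH dehydrogenase, feeds electrons from NADH into the chain and pumps protons through its membrane arm, to which all 7 mitochondrial subunits belong. These 7 genes summed to 14082 to 15911 CPM, 37.5% to 38.5% of mitochondrial counts. MT-ND4 (chrM:10760-12137), a pump-like subunit, was the highest of them per kb, with 6764, 7027, 6864 and 6919.7 CPM in libraries 1 to 4 and 6187 and 6394 CPM in libraries 5 and 6. MT-ND5 (chrM:12337-14148), the longest mRNA, had 3210.2, 3357, 3365, 3539, 3034 and 3126 CPM. In both genes the values of libraries 5 and 6 were the lowest 2 by column totals, whereas library 1 was lowest under TMM, with spans of 1.05 and 1.11.

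MT-ND1 (chrM:3307-4262), which lies near the quinone site, ranged from 1717 to 1958 CPM, and MT-ND2 (chrM:4470-5511) from 2113 to 2438 CPM. MT-ND4L (chrM:10470-10766), a small membrane subunit, ranged from 394 to 460.2 CPM. By column totals, the highest library of each of these 3 genes was at most 1.17 times its lowest. MT-ND3 (chrM:10059-10404) varied more, with 373, 396, 475, 481, 478 and 552 CPM in libraries 1 to 6, so that library 6 was 1.48 times library 1. Libraries 1 and 2 were the lowest 2 for MT-ND3 by column totals and under TMM.

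MT-ND6 (chrM:14149-14673), the only mRNA encoded on the light strand, was the lowest mRNA and the one that varied most. It stood at 284, 300.05, 227, 224, 152 and 175 CPM in libraries 1 to 6. Libraries 1 and 2 were highest, libraries 3 and 4 lay between, and libraries 5 and 6 were lowest. Library 2 was 1.97 times as high as library 5. With TMM or median-of-ratios scaling the same libraries were highest and lowest, with a span of 1.80 under both, and within the mitochondrial counts alone it was 1.77. Under TMM MT-ATP8 spanned 1.77 and MT-ND3 1.64, so MT-ND6 was then only slightly more variable than MT-ATP8. Per kb, MT-ND6 stood at 0.274, 0.273, 0.203, 0.195, 0.135 and 0.149 of the median of the other 12 mRNAs. Its base composition also set it apart, with 35.6% G and 7.05% C, against 6.28% to 16.2% G and 29.5% to 35.98% C in the 12 heavy-strand mRNAs. MT-ND6 lies directly beside MT-ND5 on the opposite strand, and its level was 0.173 to 0.308 of that of MT-ND5 per kb.

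Complex III passes electrons from ubiquinol to cytochrome c, and its only mitochondrial subunit is cytochrome b. MT-CYB (chrM:14747-15887) had 2035, 2144, 2293, 2327, 2563 and 2650.5 CPM in libraries 1 to 6. Here libraries 5 and 6 were the highest and libraries 1 and 2 the lowest, on either scaling, and the span was 1.30 by column totals and 1.44 under TMM. Between libraries 1 and 2, 3 and 4, and 5 and 6, MT-CYB thus lay in the opposite order from its light-strand neighbour MT-ND6. Within these pairs the orders were not all opposite. The level of MT-ND6 per kb was 0.304 of that of MT-CYB in library 2 and 0.129 in library 5.

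Complex V makes ATP from the proton gradient, and MT-ATP6 forms its proton channel while MT-ATP8 is a short membrane subunit. MT-ATP6 (chrM:8527-9207) had 2065, 2164, 2530.2, 2512, 2357 and 2515 CPM, with libraries 1 and 2 lowest by column totals and under TMM. MT-ATP8 (chrM:8366-8572) had 131, 162, 197, 150.4, 158 and 209 CPM, with library 6 1.60 times library 1. The ratio of MT-ATP8 to MT-ATP6 was 0.197 to 0.274 per kb and 0.236 to 0.328 when only the bases that no other gene shares were used as length. For MT-ND4L over MT-ND4 these ratios were 0.264 to 0.318 and 0.269 to 0.324. Both short genes thus had fewer counts per kb than their partner in every library on either length. Neither length corrects for reads of 150 bases that reach into the partner gene, whose assignment is unknown. Each ratio compares the counts of overlapping genes, and whether these stand for separate RNA molecules was not tested.

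**Figure D2:**
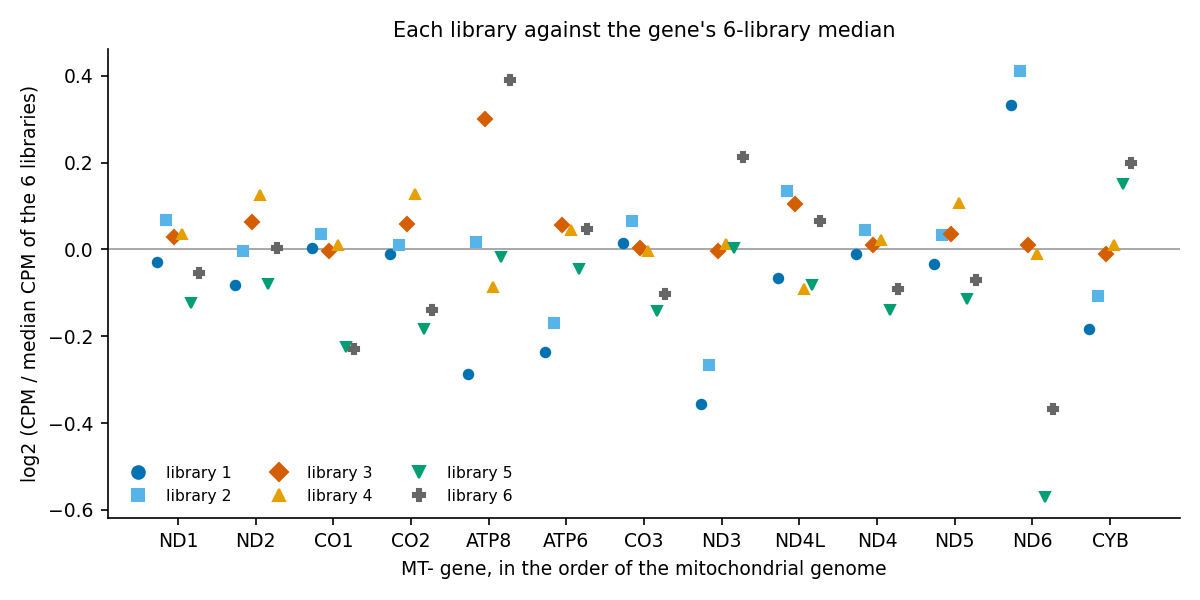
Points show the log2 ratio of each library's CPM to the median CPM of the same gene over the 6 libraries (y axis), for the 13 mRNAs in genome order (x axis). MT-ND6 has libraries 1 and 2 above and 5 and 6 below 0, from 0.41 to -0.57, while MT-CYB has them the other way round, from -0.18 to 0.20. These 2 orders were the same under TMM scaling.

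Composition within the mitochondrial mRNAs removes the choice of library size. Of the counts of the 13 mRNAs, MT-CO1 took 29.7% in library 1 and 26.3% in library 6, and MT-ND4 took 16.5% to 17.0% in all libraries. MT-CYB took 5.11%, 5.19%, 5.54%, 5.55%, 6.90% and 6.93% in libraries 1 to 6, and MT-ND6 took 0.712%, 0.726%, 0.549%, 0.534%, 0.409% and 0.457%. MT-ND1, MT-ND4 and MT-ND5 were the steadiest, with a highest library at most 1.05 times the lowest.

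The complete list of reading frames differs in how it starts and ends. The reference transcripts of 9 of the 13 mRNAs start with ATG, and MT-ND1, MT-ND3 and MT-ND5 start with ATA and MT-ND2 with ATT. A full stop codon ends 7 of the 13. The other 6 end in part of one, TA in MT-ND1 and T in MT-ND2, MT-CO3, MT-ND3, MT-ND4 and MT-CYB. The highest gene, MT-CO1, ends in AGA and the lowest, MT-ND6, in AGG, codons that mean arginine in the cytosol.

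The 2 rRNA genes encode the RNA cores of the mitochondrial ribosome and are among the most abundant RNAs of a cell, but the libraries were made after a Ribozero kit had removed rRNA. MT-RNR1 (12S, chrM:648-1601) had 119, 63, 20, 30, 7 and 36 counts in libraries 1 to 6. MT-RNR2 (16S, chrM:1671-3229) had 258, 95, 33, 41, 8 and 47 counts. Library 1 was highest and library 5 lowest for both genes, and both had the same order of libraries in CPM. Together they stood at 46.9, 17.7, 6.09, 7.33, 1.47 and 10.1 CPM, so library 1 was 32.0 times library 5. Nuclear rows annotated as rRNA genes or rRNA pseudogenes summed to 13.3 to 14.8 CPM over the same libraries, on 107 to 143 counts. How much cytosolic rRNA, which the kit also targets, was left in each library was not measured by these rows. The 2 genes ranked at a median of 7783 and 8518 per kb, and their level in the cells cannot be told apart from what the depletion left.

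The tRNA genes were close to the limit of detection. The floor, taken as 3 counts in a library, is 0.293 to 0.373 CPM. It bounds the counts in a library, not the tRNA in the cells. Of 22 tRNA genes, 8 had 0 counts in all 6 libraries, which allows up to that floor in each library. They are MT-TL1 and MT-TL2 for leucine, MT-TC for cysteine, MT-TK for lysine, MT-TG for glycine, MT-TR for arginine, MT-TH for histidine and MT-TS2 for serine. Another 4 had under 3 counts over all libraries together, MT-TV and MT-TD with 2 each and MT-TM and MT-TN with 1 each.

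MT-TP, the proline tRNA on the light strand, had the most counts, with 177, 212, 117, 125, 99 and 81 in libraries 1 to 6. MT-TT for threonine, on the heavy strand next to it, had 25, 41, 35, 24, 35 and 26. MT-TP was above MT-TT in every library, by 2.83 to 7.08 times. MT-TQ for glutamine had 149 counts over the 6 libraries, MT-TS1 for serine 77, MT-TA for alanine 41 and MT-TE for glutamate 40, all 4 on the light strand. MT-TW for tryptophan had 27 counts, MT-TI for isoleucine 20, MT-TY for tyrosine 16 and MT-TF for phenylalanine 14. MT-TS1 stood at 23 counts in library 1 and 9 to 14 in the others, and for counts this low no order of libraries was read.

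**Figure D3:**
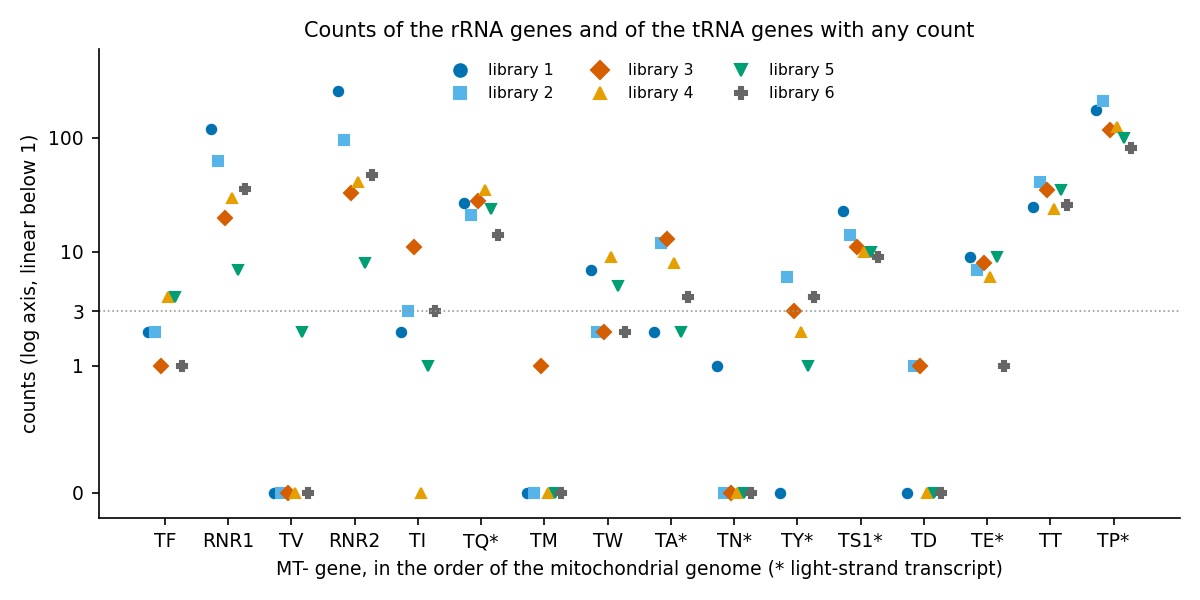
Points show counts per library (y axis, log scale above 1 and linear below) for the 2 rRNA genes and the 14 tRNA genes with any count, in genome order, with an asterisk for light-strand genes and a dotted line at the floor of 3 counts. MT-TP is the highest tRNA in all 6 libraries, and both rRNA genes are highest in library 1 and lowest in library 5.

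Summed by strand, the 8 light-strand tRNAs held more than the 14 heavy-strand ones in every library, but 811 of their 1135 counts were MT-TP. The light-strand sum was 29.7, 30.5, 20.7, 19.2, 14.2 and 13.7 CPM in libraries 1 to 6, and the heavy-strand sum was 3.82 to 5.86 CPM. Libraries 1 and 2 were highest and libraries 5 and 6 lowest in the light-strand tRNAs, and under TMM the order was the same. Without MT-TP the light-strand sum was 62, 60, 63, 61, 46 and 32 counts against 36, 49, 51, 37, 47 and 32 on the heavy strand, so it was higher in 4 of 6 libraries, and libraries 1 to 4 stood at 6.30 to 7.72 CPM. All 9 light-strand genes together made 0.447% to 0.798% of mitochondrial counts. Whether these counts are mature tRNA, precursor or reads of the opposite strand was not tested.

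Nuclear DNA carries copies of mitochondrial sequence, and the annotation names 399 of them as pseudogenes of the 13 mRNAs. Counts fell on 63 of these, 6504 in all, which equals 0.302% of the mitochondrial counts. The 5 highest were MTCO1P12, MTCO3P12, MTCO2P12 and MTATP6P1 on chromosome 1 and MTND4P12 on chromosome 5. MTCO1P12 was at 54.4 to 73.4 CPM, with 98.6% of bases identical to MT-CO1 over its length and 0.555% of the counts of that gene. MTND4P12 was at 18.9 to 24.0 CPM with 95.7% identity to MT-ND4, and the other 3 had medians of 3.51 to 6.36 CPM and 97.9% to 98.5% identity. At such identity some reads of a gene and its copy cannot be separated, and how such reads were counted is not known, so the values of the copies are uncertain. Copies of MT-ND6 had counts equal to 0.661% of the gene over the 6 libraries together, against 0.574% for MT-CO1, whose copies had the larger share in libraries 2 and 3.

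The nuclear partners of the 4 complexes were counted in the same libraries. All 78 nuclear subunit genes, those of complex II included, had counts, and together they summed to 6219, 6332, 6141, 6115, 5829 and 6000.3 CPM in libraries 1 to 6, a span of 1.09 by column totals and 1.08 under TMM. In each complex the median mitochondrial subunit was above the median nuclear one per kb of merged exons, by 141 to 161 times in complex I, 54.9 to 106 times in complex III, 131 to 191 times in complex IV and 77.9 to 115 times in complex V. These folds rest on the lengths used. With the length of the canonical transcript, an alternative chosen after seeing the data, they were 46.1 to 51.2, 46.6 to 62.1, 61.5 to 84.8 and 22.2 to 30.2 times. By medians over the 6 libraries, no nuclear subunit reached its complex's lowest mitochondrial subunit on either length. With the canonical length the median of NDUFB9 (385 CPM per kb) came close to that of MT-ND6. Single subunits were not compared library by library on that length. In plain CPM, which favours long genes, the median of NDUFB9 was above that of MT-ND6. By library, NDUFB9 was below MT-ND6 in libraries 1 and 2 (259 and 265 against 284 and 300.05 CPM). It was well above in libraries 5 and 6 (413 and 430 against 152 and 175 CPM). ATP5F1A and ATP5F1B were above MT-ATP8 in every library. ATP5F1E and ATP5PB were above MT-ATP8 by their medians, but ATP5F1E was below it in libraries 3 and 6 and ATP5PB in library 6. Per kb of merged exons the highest nuclear subunits were NDUFS5 in complex I (130 CPM per kb), UQCRH in complex III (70.1), COX7C in complex IV (92.6) and ATP5F1B, the catalytic subunit of complex V (227).

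By complex, the nuclear sums over the libraries did not all follow the mitochondrial ones. The 37 genes of complex I summed to 1916 to 1996 CPM, a span of 1.04 by column totals and 1.16 under TMM. This narrow span does not mean that each gene was steady. NDUFB9 had 259 to 268 CPM in libraries 1 to 4 and 413 and 430 CPM in libraries 5 and 6. NDUFS1 moved the other way, with 213 to 226 CPM and then 175 and 180 CPM. The sum was not computed without NDUFB9. NDUFA1 (95.6) and NDUFAB1 (70.5) had the highest medians per kb after NDUFS5. The 4 genes of complex II, which has no mitochondrial subunit, summed to 450 to 490.02 CPM. SDHA had the most counts (183 to 216 CPM), while SDHC, SDHD and SDHB were the highest per kb. The 11 genes of complex IV summed to 922 to 1035 CPM, with COX6B1 and COX5A next to COX7C per kb. For this nuclear sum libraries 5 and 6 were the highest 2 on either scaling. The sum of the mitochondrial subunits of this complex was lowest in these libraries on either scaling. The nuclear genes did not move together. NDUFA4 had 93.4, 98.1, 106.0, 96.9, 171.3 and 170.5 CPM in libraries 1 to 6. COX5A and COX7B were instead lowest in libraries 5 and 6 on either scaling. The order of the nuclear sum was thus not that of every gene, and it was not computed without NDUFA4. The 17 genes of complex V summed to 1878 to 2169 CPM, with ATP5MK and ATP5PB next to ATP5F1B per kb.

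By column totals the nuclear genes of complex III had the widest span, 1.31, while under TMM those of complex IV did, with 1.23 against 1.20. Its 9 genes summed to 764, 756, 732, 694, 581 and 590.5 CPM, with libraries 5 and 6 lowest, whereas MT-CYB was highest there, on either scaling. UQCRC2, a core subunit, stood at 184, 188, 176, 158, 80.7 and 81.1 CPM, and library 2 was 2.33 times library 5. A large part of the fall of the sum was thus this gene, and the order of the sum was not computed without it. UQCRQ and UQCR11 were instead lowest in libraries 3 and 4 on either scaling. UQCR10, a small subunit, was at 55.3 to 73.8 CPM.

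Genes that make and keep mitochondrial RNA were present in all libraries. The 9 genes of mitochondrial transcription summed to 294 to 394 CPM. TFAM, which packages the DNA and binds its promoters, had 187, 179, 128, 135, 110 and 121 CPM in libraries 1 to 6, and POLRMT had 26.6 to 31.6 CPM. TFAM was highest in libraries 1 and 2 on either scaling, as MT-ND6 and several of the nuclear genes below were. A link between TFAM and MT-ND6 was not tested. For POLRMT library 6 was highest, by a span of 1.19. TFB2M, which melts the promoter with POLRMT, ranged from 39.6 to 47.3 CPM, and MTERF3 from 10.9 to 16.3 CPM.

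LRPPRC, which with SLIRP binds and stabilizes mitochondrial mRNAs, had 422, 433, 440 and 432 CPM in libraries 1 to 4 and 332 and 327 CPM in libraries 5 and 6. SLIRP had 29.997, 42.3, 34.4, 34.6, 25.1 and 24.0 CPM. Both were lowest in libraries 5 and 6 on either scaling. The 14 genes of mRNA stability and polyadenylation, to which both belong, summed to 1005 to 1319 CPM. GRSF1, an RNA-binding protein of mitochondrial RNA granules, had 258, 266, 192, 199.9, 159 and 169 CPM, PNPT1, a mitochondrial exoribonuclease, had 94.3 to 157 CPM, and REXO2 had 56.1 to 92.2 CPM. GRSF1 and PNPT1 were highest in libraries 1 and 2, and REXO2 in libraries 5 and 6, on either scaling.

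The 12 matched genes of precursor cutting and maturation summed to 509.7 to 549 CPM. TRMT10C and HSD17B10, subunits of the RNase P that cuts the 5′ end of mitochondrial tRNAs, had 54.7 to 80.8 and 45.6 to 53.3 CPM, and FASTK, which is tied to MT-ND6 mRNA, had 45.6 to 52.4 CPM. FASTK spanned 1.15-fold over libraries in which MT-ND6 spanned 1.97-fold, and a link between them was not tested. The 6 genes of mitochondrial DNA replication summed to 359.6 to 454 CPM. The highest per kb were the single-strand binding protein SSBP1 (132 to 173 CPM), the nuclease MGME1 (28.8 to 52.8 CPM) and the helicase TWNK (41.5 to 60.8 CPM), and the polymerase POLG had 98.5 to 117 CPM.

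The 8 regulators of mitochondrial biogenesis summed to 478 to 587 CPM, with PPRC1, YY1 and GABPB1 the highest per kb. The 16 genes of the mitochondrial stress response summed to 2911 to 3469 CPM, and 1 of them had 0 counts. HSPD1, the matrix chaperonin, had 1629, 1668, 1894, 1933, 1274 and 1306 CPM, its co-chaperonin HSPE1 had 127, 142, 117, 119, 68.0 and 71.8 CPM, and the stress transcription factor ATF4 had 165, 164, 189.9, 185, 236 and 229 CPM. Libraries 5 and 6 were lowest for both chaperonin genes and highest for ATF4 on either scaling.

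The mitochondrial ribosome translates these mRNAs, and its protein genes and the mitochondrial tRNA synthetases were added by symbol after values had been seen. The 78 ribosomal protein genes summed to 3481 to 4206 CPM with MRPS35, MRPL45 and MRPL3 the highest per kb, and the 17 synthetase genes to 601 to 731 CPM, with IARS2, YARS2 and HARS2 the highest per kb. Both sums were lowest in library 5 on either scaling, with spans of 1.21 and 1.22 by column totals and 1.10 and 1.11 under TMM.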

How the data were processed

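The authors deposited raw read counts per gene for 6 libraries of total RNA. Per the labels and the methods, rRNA was removed with a Ribozero kit, stranded libraries were sequenced as paired reads of 150 bases, reads under 20 bases after Cutadapt trimming were dropped, and the rest were aligned to hg19 with STAR and the Ensembl 75 annotation. The counting tool is not given in the sources used here. Row identifiers were matched without their version to GENCODE 44 (GRCh38), which gave symbols for 55482 of 60203 rows, gene lengths (merged exons of all transcripts) and reference sequences, and all coordinates are of GRCh38. Counts were divided by column totals (CPM) and by length (CPM per kb). The unmatched list symbols, FASTKD4 and PECAM1, were left out, and 1 listed marker is not reported here. The 41 rows of the Y copy of the pseudoautosomal region stayed in totals only.

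Named were all 37 members, the 3 highest genes per kb of each list with POLRMT, TFAM, LRPPRC and SLIRP, and the 5 highest nuclear copies. Some other genes were named after their values were seen. The members and lists were chosen with earlier results of these data known. All 6 columns entered as libraries labelled HUH7 without an siRNA, so no test was run. Alternatives were TMM (edgeR 4.0.16) and median-of-ratios (DESeq2 1.42.0) scaling, other totals, a filter of 10 summed counts, nuclear copies added, unshared and canonical transcript lengths and leaving out each library. The scaling and share steps were tested on simulated data. Totals of 8034137 to 10224212 counts put the floor of 3 counts at 0.293 to 0.373 CPM. Python 3.11.15, pandas 2.3.3 and R 4.3.3 were used.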

Additional observations from a re-analysis of the deposited data

How the results depend on the processing

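Of 71 alternatives, 51 left the value within the limit set for it, 20 moved it and 0 reversed it. Shares are positive and highest-over-lowest spans are at least 1, so those values could not reverse. The order of libraries, which did change with scaling, was not part of this count. The mitochondrial share of the highest over the lowest library, 1.13 by column totals, was 1.06 under TMM, 1.06 under median-of-ratios and 1.14 against the nuclear total, and leaving out each library gave 1.10 to 1.13. Under both scalings library 6 replaced library 4 as the highest and library 1 replaced library 5 as the lowest. Leaving out each library moved the median share over 3.99% to 4.14% and the span of the nuclear respiratory-chain sum over 1.06 to 1.09. The MT-ND6 span of 1.97 became 1.80 under TMM, 1.80 under median-of-ratios and 1.77 within mitochondrial counts, 3 alternatives chosen after seeing the data. Pairing by replicate number could not be examined because no column carries such a number tied to an siRNA. Canonical transcript lengths, also chosen after seeing the data, moved the median fold of mitochondrial over nuclear subunits from 145 to 49.3 in complex I, 81.7 to 55.1 in III, 163 to 72.2 in IV and 102 to 26.2 in V. Most tRNA values are near the floor of 3 counts, and the tRNA genes, of 59 to 75 nt, are shorter than the reads of 150 bases. How much of the tRNA such libraries retain was not tested. The depletion of rRNA limits both rRNA values.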

Other observations

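The 15 pairs of libraries were compared by a chi-square of their counts per degree of freedom over at least 13165 genes with 20 or more counts in the pair, where a value of 1 is sampling noise. Libraries 1 and 2 gave 1.39, libraries 3 and 4 gave 1.62 and libraries 5 and 6 gave 1.74, and the other 12 pairs gave 22.2 to 56.7. Over the 13 mitochondrial mRNAs alone the same 3 pairs gave 5.93, 14.7 and 14.7, and the others 52.1 to 245. All pairs thus differed by more than sampling noise, so no library was counted as a copy of another, and no siRNA was read from these values. The pair 3 and 4 differed most in MT-ATP8, with 197 and 150.4 CPM, and the pair 5 and 6 likewise, with 158 and 209 CPM.

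LYZ, the lysozyme gene, had a median of 791 CPM per kb and was among the 25 highest genes per kb, beside KRT18 at 747 CPM per kb. Both were chosen after their values were seen, and neither was among the liver markers.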
